A study of Mus musculus with 12 samples.

Results

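Alternatively activated macrophages are described here through 10 genes, Il4ra, Stat6, Retnla, Chil3, Ccl8, Ccl24, Mrc1, Cd163, Folr2 and F13a1, out of 23282 lines of a table of read counts per gene symbol. They were picked for their rise after combined treatment, that is, they were chosen by their measured values in the combined group, and their level in that group against any other is given as a description with no test. Each symbol stood in 1 line, and all 10 genes were among the 13464 lines that passed the filter on low counts.

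The counts came from MC38 tumors, grown from a mouse colon carcinoma cell line subcutaneously in the right flank of wild-type female C57BL/6 mice. The mice were 6 weeks old when bought and were acclimated before use, and the tumors were taken on day 19. The 12 tumors fell into 4 groups of 3. SFIH is a hexane fraction of the root of elecampane (Inula helenium) rich in sesquiterpene lactones. Con mice received the vehicle of SFIH, saline with DMSO and Tween, and an IgG2a control antibody. SFIH mice received the control antibody and SFIH at 50 mg/kg each day. PD mice received 200 μg of an anti-PD-1 antibody 2 times a week, and Comb mice received both SFIH and the anti-PD-1 antibody. Although the labels call the material tumor cells, RNA was taken from whole tumor tissue, and the 18 general macrophage genes examined had counts in every tumor. Keratins and other epithelial genes were low, with a summed level of 3.03 to 23.9 CPM (counts scaled to a total of 1000000 per tumor) outside Comb for a list of 10. No label states that each tumor came from its own mouse, so the p-values measure the spread between these tumors, which may be partly technical. In RNA of a whole tumor, fewer cells of a type and less RNA per cell cannot be told apart.

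Macrophages take up different states according to the signals around them. IL-4 and IL-13 bind receptors that contain the IL-4 receptor alpha chain, which leads to phosphorylation of the transcription factor STAT6 and to a program called alternative activation, known from worm infection, allergy, tissue repair and many tumors. Its products include secreted lectins and resistin-like proteins, chemokines that draw eosinophils and T cells, and scavenger receptors on the cell surface, some of which also mark macrophages that reside in healthy tissue.

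STAT6 prefers a palindrome of TTC and GAA with a spacer of 4 bases (TTCNNNNGAA), while other STAT proteins prefer the shorter TTCNNNGAA. Both strands were covered, because each motif reads the same on either strand. RefSeq promoter windows of GRCm38.p6, from 250 bases before to 50 after a start site, were matched for 9 of the 10 genes and gave 11 windows. Of these, 2 held a motif, and both are shown because the lectin and the resistin-like protein are the textbook products of the pathway. The 250 bases before the start of Retnla lie at chr16:48842359-48842608 on the plus strand, and capitals mark TTCNNNNGAA at bases 145 to 136 before the start.
Retnla: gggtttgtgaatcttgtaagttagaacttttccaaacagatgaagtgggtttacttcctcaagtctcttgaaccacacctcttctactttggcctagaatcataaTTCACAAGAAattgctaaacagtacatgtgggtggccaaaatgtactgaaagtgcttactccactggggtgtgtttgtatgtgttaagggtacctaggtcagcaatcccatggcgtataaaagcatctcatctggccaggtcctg
The 250 bases before the start of Chil3 lie at chr3:106167565-106167814 on the minus strand and are written in the direction of the gene, with capitals for TTCNNNGAA at bases 172 to 164 before the start.
Chil3: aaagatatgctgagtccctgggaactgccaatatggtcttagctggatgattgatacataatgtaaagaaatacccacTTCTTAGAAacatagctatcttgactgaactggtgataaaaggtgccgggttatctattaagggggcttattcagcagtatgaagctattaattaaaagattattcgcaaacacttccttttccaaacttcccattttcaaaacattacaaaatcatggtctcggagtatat
The 2 matches lie in different windows, and neither window held a second match. Of 32851 promoter windows of the same length, 6.95% held TTCNNNNGAA and 8.30% held TTCNNNGAA, so a match is common and is a description of the letters only.

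Between 7870741 and 12261032 reads per tumor were counted. The ribosomal RNA line Rn45s took 6.84 to 10.3% of counts in Con and 4.28 to 9.90% with SFIH alone, highest in SFIH 3. It took 7.26 to 17.1% with PD alone, highest in PD 2, and 10.2, 14.1 and 5.56% in Comb. Its bearing on the levels of the 10 genes was not tested. The 3 Comb tumors differed more from each other than tumors of any other group, with a mean chi-square per gene of 62.4 to 390 between pairs, against 11.4 to 59.9 within the other groups. Comb 3 stood apart from all others, with a TMM scaling factor of 0.758, high levels of skeletal muscle genes (summed level 6187 CPM, against 10.9 to 170.4 in the 9 tumors outside Comb) and skin genes (437 CPM, against 6.07 to 43.2). Comb 1 also held skeletal muscle RNA (788.5 CPM), whereas Comb 2 did not stand out (11.6 CPM). Differences between Comb and another group are therefore also given without Comb 3.

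Together the 10 genes took between 0.0267 and 0.0362% of all counts in the Con tumors, up to 0.0495% with SFIH alone and up to 0.114% with PD alone. In Comb, they took 0.0611% in tumor 1, 0.440% in tumor 2 and 6.28% in tumor 3. The range within Comb was thus far wider than any difference between the other groups. Comb 3 was the highest of all 12 tumors for 9 of the 10 genes, Stat6 being the exception, and Comb 1 was the lowest Comb tumor for 9 of the 10.

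**Figure D1:**
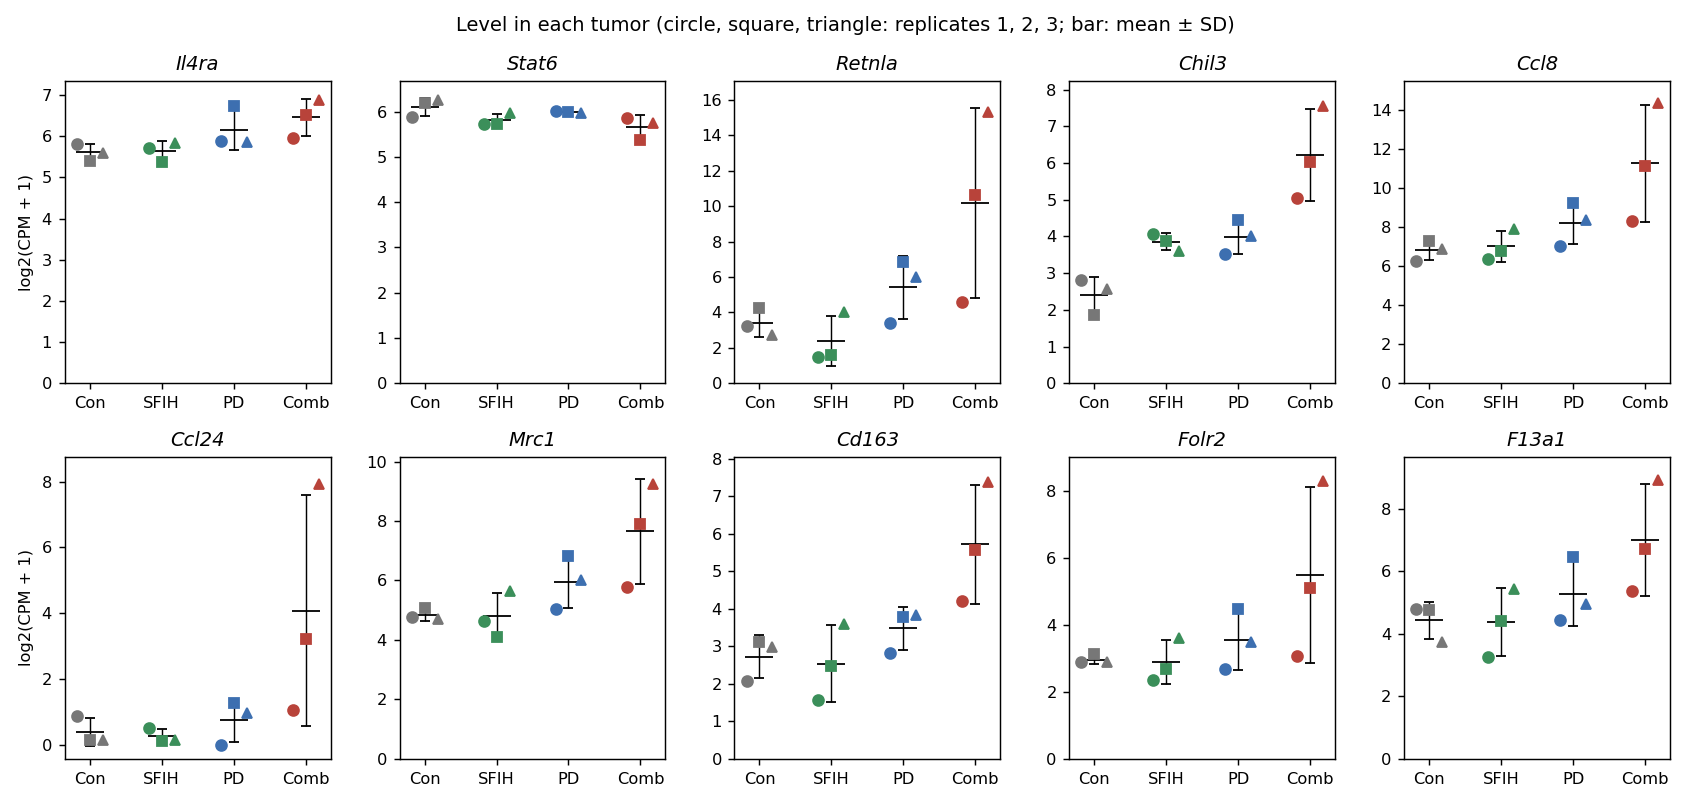
Level of each gene as log2(CPM + 1), 1 panel per gene and 1 symbol per tumor (circle, square and triangle for replicates 1, 2 and 3), with the mean and SD of each group as a bar, n = 3. Comb 3 is the highest symbol in 9 of the 10 panels, and the Stat6 panel shows all 12 tumors between 40.2 and 75.5 CPM.

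Il4ra encodes the IL-4 receptor alpha chain. Its level was 55.5, 41.5 and 47.5 CPM in Con, 51.4, 40.3 and 56.1 CPM for the SFIH tumors, 57.8, 106 and 57.6 CPM for the PD tumors, and 61.6, 91.5 and 117 CPM in Comb. All PD and all Comb tumors lay above the 3 Con tumors, SFIH and Con overlapped, and the highest PD tumor was above Comb 1 and Comb 2. Stat6 was at 58.1, 72.3 and 75.5 CPM in Con, 52.0, 51.6 and 61.9 CPM for the SFIH tumors, 63.3, 62.6 and 61.9 CPM for the PD tumors, and 57.4, 40.2 and 53.0 CPM in Comb. In CPM, the Comb tumors lay below all Con and all PD tumors, but they overlapped both groups after TMM scaling. Stat6 was the only gene of the 10 with no higher level in Comb than in Con. Messenger RNA does not show the phosphorylation of STAT6, which was not measured here.

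Retnla encodes resistin-like molecule alpha, a secreted protein of alternatively activated macrophages. Its counts were 92, 170 and 56 in Con, 22, 25 and 148 for the SFIH tumors, 89, 901 and 600 for the PD tumors, and 236, 15352 and 440642 in Comb. In CPM these were 8.39, 17.7 and 5.59 in Con, 1.79, 2.06 and 15.1 for the SFIH tumors, 9.57, 114 and 62.8 for the PD tumors, and 23.4, 1560 and 40128 in Comb. All 3 Comb tumors lay above Con and SFIH, but PD 2 and PD 3 lay above Comb 1. Of the 10 genes, Retnla spread most within Comb, by a ratio of 1717 between tumor 3 and tumor 1. In Comb 3, it was the second most counted line of the table, with 4.01% of all counts (95% Wilson interval 4.001 to 4.024%, which covers counting error only). Its rank by counts was 55 in Comb 2 and 6275 in Comb 1.

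Chil3 encodes Ym1, a chitinase-like lectin. Its level was 6.02, 2.60 and 4.89 CPM in Con, 15.8, 13.7 and 11.3 CPM for the SFIH tumors, 10.4, 20.8 and 15.3 CPM for the PD tumors, and 32.4, 64.0 and 188 CPM in Comb. Every treated tumor lay above every Con tumor, and every Comb tumor lay above every SFIH and PD tumor. Chil3 was the only one of the 10 genes with this order. Its spread within Comb, a ratio of 5.80 between tumor 3 and tumor 1, was wide but was the lowest of the 8 genes other than Il4ra and Stat6.

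Reads of closely related genes can be exchanged during alignment, so levels of Retnla and Chil3 carry this uncertainty. Retnlg, a relative of Retnla, had 35, 34 and 31 counts in Con, 19, 24 and 10 for the SFIH tumors, 15, 149 and 65 for the PD tumors, and 105, 429 and 7551 in Comb. Within PD and within Comb, its order was that of Retnla at lower counts. Retn, which encodes resistin, had 12, 1 and 1 counts in Con, 0, 27 and 2 for the SFIH tumors, 8, 4 and 0 for the PD tumors, and 2, 175 and 254 in Comb, an order unlike that of Retnla within PD. Chil4, a close relative of Chil3, had 7 counts in Comb 2 and 34 in Comb 3 and no count in the other 10 tumors, and Retnlb had 2 counts in Comb 2 and none elsewhere.

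The chemokine Ccl8 attracts monocytes and T cells, in the mouse through CCR8. Its level was 75.3, 154 and 117 CPM in Con, 80.6, 107 and 237 CPM for the SFIH tumors, 131, 605 and 327 CPM for the PD tumors, and 316, 2211 and 20473 CPM in Comb. The Comb tumors lay above Con and SFIH, whereas Comb 1 lay between the PD tumors. In Comb 3, Ccl8 was the third most counted line, with 2.05% of all counts (95% Wilson interval 2.039 to 2.056%). Ccl24 encodes eotaxin-2, which draws eosinophils through CCR3. Its counts were 9, 1 and 1 in Con, 5, 1 and 1 for the SFIH tumors, 0, 11 and 9 for the PD tumors, and 11, 82 and 2688 in Comb. The count of 0 in PD 1 allows a level of up to 0.323 CPM. Ccl24 was close to the detection limit outside Comb 2 and Comb 3, and a fold change against Con or SFIH rests on groups in which 2 of the 3 tumors had 1 count. Without Con 1, the difference of SFIH from Con moved from -0.79 to 0.90 on the log2 scale.

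Both chemokines and Retnla were counted from the 3′ ends of transcripts, which gives counts that do not grow with gene length. The ratio of Retnla to Ccl8 counts was 0.112, 0.115 and 0.0477 in Con, 0.0223, 0.0193 and 0.0640 for the SFIH tumors, 0.0731, 0.189 and 0.192 for the PD tumors, and 0.0740, 0.705 and 1.96 in Comb. Retnla exceeded Ccl8 in Comb 3 and in no other tumor, and the ratio in Comb 1 was close to that in PD 1.

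Mrc1 encodes the mannose receptor CD206, which takes up glycoproteins. Its level was 26.4, 32.8 and 24.8 CPM in Con, 24.1, 16 and 48.9 CPM for the SFIH tumors, 31.6, 112 and 64.2 CPM for the PD tumors, and 53.6, 240 and 612 CPM in Comb. Cd163, which encodes the scavenger receptor for complexes of hemoglobin and haptoglobin, was at 3.19, 7.70 and 6.88 CPM in Con, 1.96, 4.54 and 11.1 CPM for the SFIH tumors, 6.02, 12.8 and 13.2 CPM for the PD tumors, and 17.5, 46.5 and 165 CPM in Comb. Comb tumors lay above Con and SFIH for both receptors. They also lay above all PD tumors for Cd163, whereas for Mrc1 the PD tumors 2 and 3 were above Comb 1.

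Folr2 encodes folate receptor beta, a surface protein of tissue-resident macrophages. Its level was 6.39, 7.70 and 6.39 CPM in Con, 4.08, 5.44 and 11.3 CPM for the SFIH tumors, 5.38, 21.1 and 10.3 CPM for the PD tumors, and 7.43, 33.1 and 311 CPM in Comb. Comb 1 lay within the Con range, so Folr2 was the only gene besides Stat6 without full separation of Comb above Con. F13a1 encodes the A subunit of coagulation factor XIII, which cross-links fibrin and is also made by monocytes and macrophages. Its level was 26.8, 25.9 and 12.4 CPM in Con, 8.56, 20.4 and 42.6 CPM for the SFIH tumors, 20.9, 86.5 and 29.7 CPM for the PD tumors, and 40.7, 105 and 485 CPM in Comb. For F13a1, Comb lay above Con but overlapped SFIH and PD, since SFIH 3 and PD 2 were above Comb 1.

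**Figure D2:**
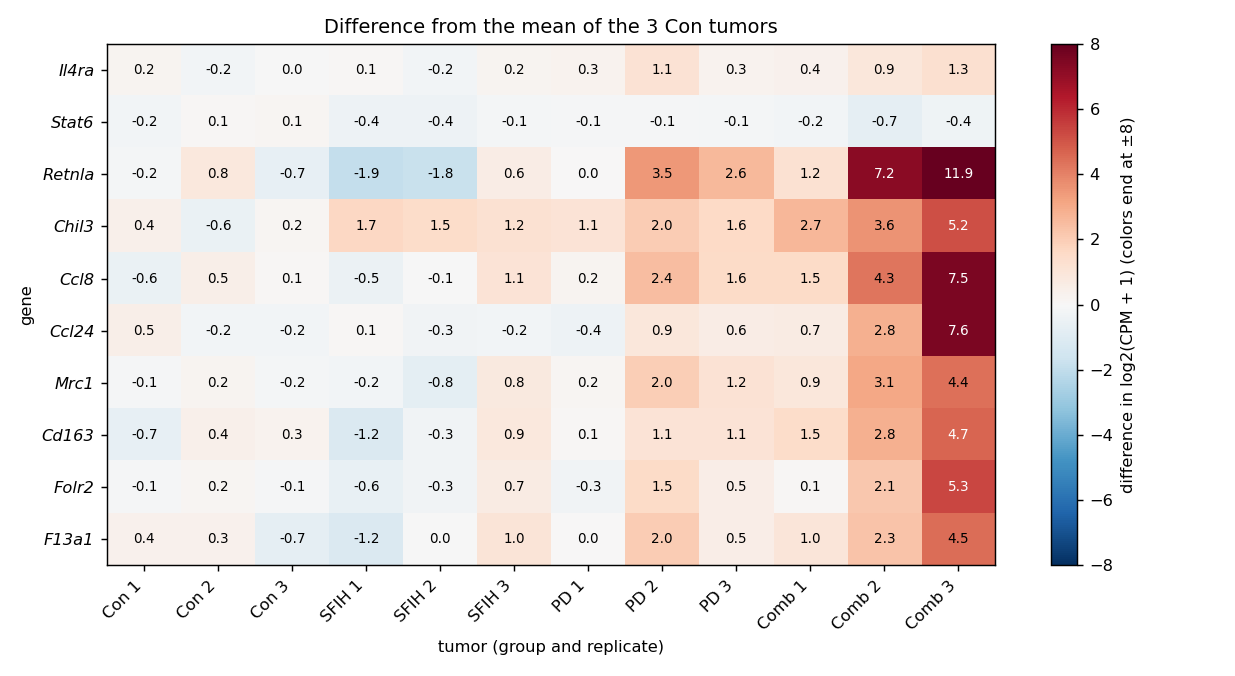
Difference of each tumor from the mean of the 3 Con tumors in log2(CPM + 1), genes in rows and tumors in columns, with red for higher and blue for lower and colors ending at ±8. Comb 3 holds the deepest red for every gene except Stat6, and PD 2 and SFIH 3 are the reddest columns of their groups for 8 of the 10 genes each.

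Whether either treatment alone moved these genes was tested by edgeR's quasi-likelihood test in a fit of all 12 tumors, adjusted over the 13464 genes tested. These comparisons did not choose the genes, but they share the Con tumors with one that did. No gene of the 10 had an adjusted p under 0.05 in either, and no gene of the whole table did (0% called higher and 0% lower for SFIH, and 0% higher and 0% lower for PD). At an unadjusted p under 0.05 there were 303 genes for SFIH and 537 for PD. DESeq2 called 4 genes for SFIH and 6 for PD, none of them among the 10.

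Chil3 was the only gene of the 10 with an unadjusted p under 0.05, in both comparisons. It was 1.57 ± 0.63 higher in SFIH than in Con (log2 fold change ± standard error, adjusted p = 0.9998 in edgeR) and 1.89 ± 0.64 higher in PD (adjusted p = 0.9998 in edgeR). All 3 tumors of either group were above Con, and the lowest adjusted p over the alternatives was 0.273 for SFIH and 0.191 for PD, both in a fit of only the 2 groups. It was also the only gene of the 10 with no overlap between SFIH and Con, 1 of 10 beside 7.55% of all genes tested. For PD there were 2 of 10, Chil3 and Il4ra, beside 5.76% of all genes, and Il4ra was 0.73 ± 0.36 higher in PD on the log2 scale (adjusted p = 0.9998 in edgeR).

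For SFIH against Con, Stat6 stood at -0.31 ± 0.20, and the 8 genes other than Chil3 and Stat6 differed by less than their standard errors. The 10 log2 fold changes had a median of 0.04, beside 0.02 for all genes, and ran from -0.79 ± 2.53 for Ccl24 and -0.70 ± 1.76 for Retnla to 1.57 for Chil3. SFIH 3 was the highest SFIH tumor for 8 of the 10 genes, and without it the median was -0.57 and Retnla stood at -2.53. For PD against Con, the median was 1.18, beside 0.01 for all genes, and 9 of the 10 were above 0, Stat6 being at -0.03 ± 0.20. Retnla was 2.67 ± 1.80, Ccl8 1.75 ± 1.16 and Mrc1 1.43 ± 0.81 higher in PD on the log2 scale, and none of these differences passed the test (adjusted p = 0.9998 each in edgeR). PD 2 was the highest PD tumor for 8 of the 10, and without it Il4ra, Folr2 and F13a1 differed from Con by 0.31, 0.24 and 0.25 on the log2 scale, against 0.73, 0.96 and 1.20 with it. Retnla, Ccl8, Mrc1 and Ccl24 stood at 1.79, 1.03, 0.82 and 0.45 without PD 2, and the median of the 10 fell to 0.60.

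**Figure D3:**
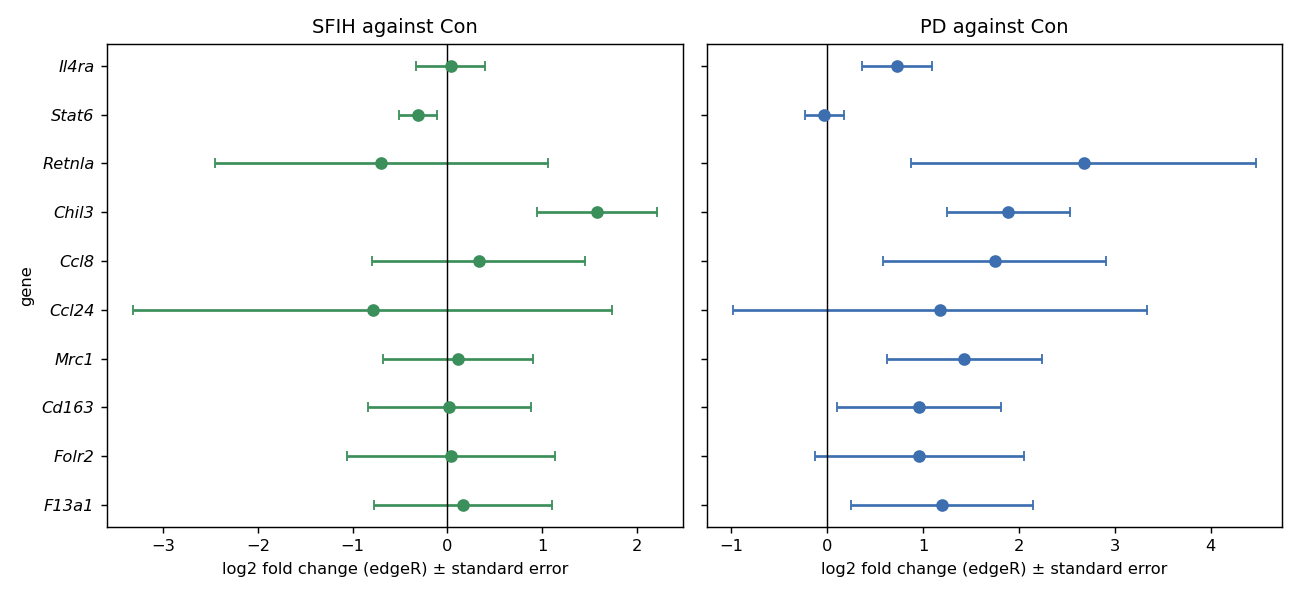
Log2 fold change of each gene in SFIH (left) and PD (right) against Con, as points with the standard error of the edgeR fit, 3 tumors in each group. In SFIH, 7 of the 10 points lie above 0 and most bars cross it, while in PD 9 of the 10 lie above 0 and Chil3 has the smallest error relative to its value.

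Against Con, Comb was 10.83 ± 2.53 higher for Retnla, 8.33 ± 1.99 for Ccl24, 6.52 ± 1.43 for Ccl8 and 4.79 ± 0.70 for Chil3, as log2 fold change with its standard error. The surface receptors and F13a1 followed, with 4.56 ± 1.21 for Folr2, 4.11 ± 0.93 for Cd163, 3.84 ± 0.88 for Mrc1 and 3.69 ± 1.03 for F13a1. Il4ra was 1.23 ± 0.37 higher and Stat6 -0.17 ± 0.20. In the same order of genes, without Comb 3 the log2 fold changes were 6.48, 3.93, 3.70 and 3.61, then 1.80, 2.65, 2.62 and 1.95, and 0.85 for Il4ra. The median of the 10 fell from 4.34 to 2.64, beside -0.03 for all genes. Scaling by library totals in place of TMM shifted the median of all genes to -0.29, and Stat6 then stood at -0.45.

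For 8 of the 10 genes all Comb tumors lay above all Con tumors, beside 7.60% of all genes tested. The choice of the genes used this contrast, so nothing is read from the count. The Comb tumors lay above all SFIH tumors for 7 of the 10, beside 4.65% of all genes, and above all PD tumors for 2, Chil3 and Cd163, beside 4.25% of all genes. These counts too involve the tumors that chose the genes. Comb 3 was never the lowest Comb tumor, so none of the 3 counts falls or rises without it. Stat6 differed in sign between Comb and SFIH according to the scaling, with 0.14 after TMM and -0.14 with library totals.

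Against PD, the log2 fold changes were 8.16 ± 2.28 for Retnla, 7.15 ± 1.86 for Ccl24 and 4.77 ± 1.32 for Ccl8. Without Comb 3 these were 3.81, 2.73 and 1.95. Chil3, Cd163, Mrc1, Folr2 and F13a1 stood at 1.73, 1.70, 1.19, 0.84 and 0.75 above PD without Comb 3. Over the 10 genes, the median against PD was 3.03, beside 0.00 for all genes, and 1.44 without Comb 3. The level of Comb 1 over the mean of the PD tumors was between 0.375 for Retnla and 2.09 for Chil3, and of the 10 genes it was above 1 for Chil3, Cd163 and Ccl24. The level of Comb 1 over the mean of the Con tumors was 7.19 for Chil3, 2.96 for Cd163, 2.74 for Ccl8 and 2.21 for Retnla. In Comb 3 the same ratios were 41.7, 27.8, 177 and 3801, so the genes changed their order from tumor to tumor.

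Over the 12 tumors, Retnla and Mrc1 moved most closely with the other members, with a median Spearman correlation of 0.91 each to the other 9 genes. The values were 0.86 for Ccl8 and Folr2, 0.85 for Cd163 and F13a1, 0.76 for Il4ra and Ccl24, 0.64 for Chil3 and -0.13 for Stat6. In the 9 tumors outside Comb, 3 of them the Con tumors used in the choice, Retnla and Mrc1 stayed at 0.85 each, and Retnla to Mrc1 was 0.97. Chil3 dropped to a median of 0.22 and stood at 0.12 with Retnla. These are descriptions of genes measured in the same libraries, which share the cell makeup and the depth of each tumor.

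The members were also set against genes that macrophages express in general, of which DESeq2 called 17 of 17 tested higher in Comb than in Con (11 without Comb 3, and none by edgeR, with 17 at an unadjusted p under 0.05). The absence of edgeR calls between Comb and Con depends on Comb 1, since without it edgeR called 17 of these 17. The mean log2(CPM + 1) of 18 genes, among them Adgre1 (F4/80), Csf1r and the C1q chains, was 5.95, 5.41 and 6.17 in Con, 6.33, 6.15 and 6.02 for the SFIH tumors, 6.18, 7.03 and 6.42 for the PD tumors, and 6.37, 7.56 and 8.85 in Comb. PD 2, Comb 2 and Comb 3 were the highest tumors, the same that were highest for the sum of the members. Relative to this mean, the median difference of the 10 genes was 1.15 between Comb and Con on the log2 scale, beside -2.06 for all genes, and 1.03 between Comb and PD, beside -1.23. Without Comb 3 these were 0.76 and 0.72. For SFIH and PD against Con the median was -0.39 and 0.10, beside -0.30 and -0.78. These values move with the reference and the tumors. With Ptprc, which encodes the leukocyte antigen CD45, in place of the macrophage genes, Comb against Con stood at 1.91, Comb against PD at 1.71 and SFIH against Con at 0.00. With the macrophage genes as the reference, PD against Con changed its sign when 1 tumor was left out (-0.15 without Con 3, -0.03 without PD 2).

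Relative to the macrophage genes, 3 of the 10, Chil3, Ccl8 and Cd163, lay above Con in all 3 Comb tumors, beside 0.446% of all genes tested. The choice of the genes used this contrast too, so nothing is read from the count. Relative Chil3 was -3.13, -3.56 and -3.61 in Con, -2.25, -2.27 and -2.40 for the SFIH tumors, -2.67, -2.58 and -2.40 for the PD tumors, and -1.31, -1.54 and -1.29 in Comb. On this scale it was nearly level within each treated group, with Comb highest and without overlap between Comb and any other group. Relative Retnla was -2.71, -1.19 and -3.45 in Con, -4.84, -4.53 and -2.01 for the SFIH tumors, -2.78, -0.18 and -0.43 for the PD tumors, and -1.76, 3.05 and 6.44 in Comb. Comb 1 lay within the Con range here, and Comb 2 and Comb 3 lay far above it. Relative Il4ra was -0.40, -1.03 and -1.97 in Comb, against -0.13, 0.00 and -0.57 in Con, with overlap between the groups. Relative Stat6 was -0.50, -2.19 and -3.09 in Comb, against -0.06, 0.79 and 0.09 in Con, so that every Comb tumor was below every Con tumor. The difference from Con was -2.20 for Stat6 and -0.90 for Il4ra, beside a median of -2.06 for all genes. Stat6 thus fell about as far as the median gene on this scale, and Il4ra fell less.

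**Figure D4:**
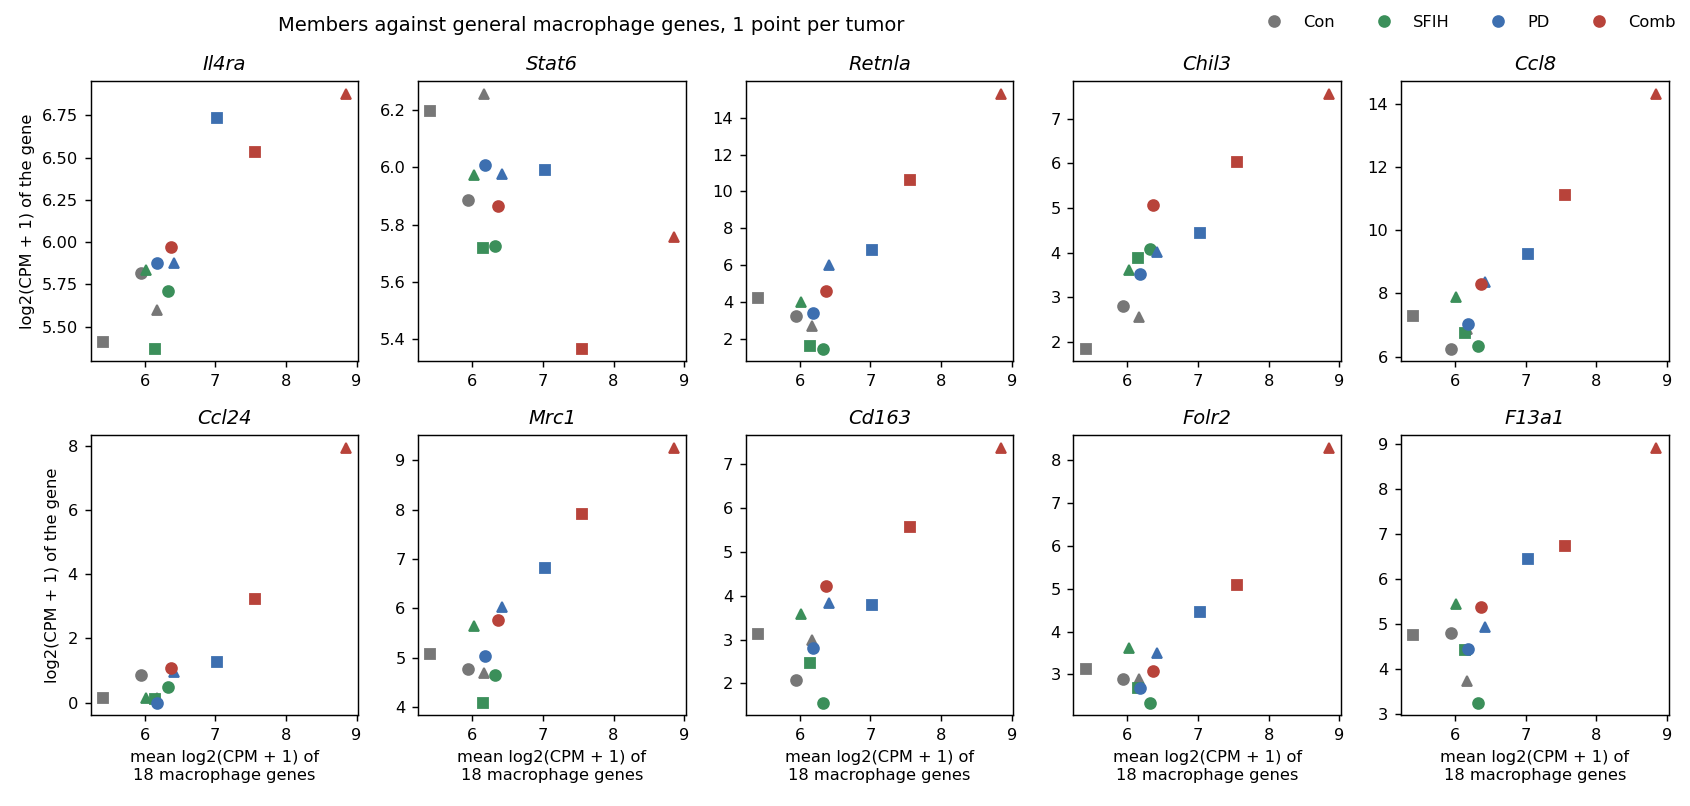
Log2(CPM + 1) of each gene (vertical) against the mean log2(CPM + 1) of 18 general macrophage genes (horizontal), 1 panel per gene and 1 point per tumor, with circle, square and triangle for replicates 1, 2 and 3. Comb 3, at 8.85 on the horizontal axis, is the highest point for every gene except Stat6, and Retnla climbs over a longer range than the macrophage genes do.

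The rest of the IL-4 and IL-13 pathway was read from a list of 17 genes, of which 15 passed the filter. Il4 itself had 2 counts in PD 3, 15 in Comb 3 and none in the other 10 tumors, and Il13 had 1 count in SFIH 1 and none elsewhere. Neither cytokine could be compared at this depth. Between Comb and Con, edgeR called none of the 15 (7 had an unadjusted p under 0.05), and DESeq2 called 5 higher and 1 lower. Without Comb 3, DESeq2 called 2 higher, and without Comb 1, edgeR called 5 higher and 2 lower. Il2rg, the common gamma chain of the type 1 receptor, was 1.19 ± 0.26 higher in Comb on the log2 scale (adjusted p = 0.0665 in edgeR), and Il13ra1, the partner of Il4ra in the receptor shared with IL-13, was -0.73 ± 0.21 (adjusted p = 0.0771 in edgeR). Without Comb 3 these were 0.90 and -0.71. Jak1 was at -0.07 ± 0.21 and Jak3 at -0.38 ± 0.35, and neither passed the test in either tool (-0.25 and -0.60 without Comb 3). Il13ra1 was the 1 gene that DESeq2 called lower.

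A further list of 30 genes of alternative activation had 28 tested, with a median log2 fold change of 3.19 between Comb and Con (1.56 without Comb 3). DESeq2 called 17 of them higher and none lower, edgeR none (20 at an unadjusted p under 0.05), and without Comb 3 DESeq2 called 5 higher and 1 lower. Without Comb 1, edgeR called 19 higher and 1 lower. Mgl2 and Clec10a, which encode galactose-type lectins, were both low in Con. Mgl2 had 23, 46 and 40 counts in Con and 111, 660 and 5826 in Comb, and Clec10a had 62, 107 and 79 counts in Con and 306, 1398 and 6373 in Comb. All 3 Comb tumors lay above Con for both lectins. Of the genes on that list with the highest levels, Fn1 (-0.23 ± 0.40), Tgm2 (0.49 ± 0.34) and Klf4 (-0.25 ± 0.20) did not pass the test in either tool. Without Comb 3 they stood at -0.93 ± 0.27, 0.74 ± 0.30 and -0.32 ± 0.20, and Fn1, which encodes fibronectin, was the 1 gene of the list that DESeq2 then called lower (adjusted p = 0.0237 in DESeq2 and 0.121 in edgeR).

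The classical activation list, of genes induced by interferon gamma and bacterial products, had 20 tested, a median of 0.89, and 7 higher by DESeq2 (3 without Comb 3, none by edgeR but 8 higher and 1 lower by edgeR without Comb 1, 9 at an unadjusted p under 0.05). Cxcl9, a T cell chemokine, was 2.12 ± 0.44 higher (1.98 without Comb 3), while Nos2, the inducible nitric oxide synthase, was at 0.03 ± 0.67 (0.51 without Comb 3) with 9 counts in Comb 3. The other abundant genes of that list did not pass in either tool, with Cxcl10, a second T cell chemokine, at 0.40 ± 0.62 and at its lowest level of the 12 tumors in Comb 3 (55.3 CPM), the transcription factor gene Irf1 at 0.27 ± 0.19 and the interferon-induced GTPase gene Gbp2 at 0.90 ± 0.35. Without Comb 3 they stood at 0.90, 0.34 and 1.04. Among CCL chemokines and receptors, 13 of 14 were called higher in Comb by DESeq2 and none by edgeR (13 at an unadjusted p under 0.05), and 8 without Comb 3 by DESeq2 or 13 without Comb 1 by edgeR. Ccl6 and Ccl9 were 4.84 ± 1.19 and 4.90 ± 1.16 higher (2.34 and 2.22 without Comb 3), Ccl7 was 1.24 ± 0.28 higher (1.02 without it), and Ccl2, at 0.58 ± 0.68 (0.95 without it), did not pass in either tool. Ccr3, the receptor of CCL24, had 1, 6 and 1 counts in Con, 3, 3 and 10 for the SFIH tumors, 4, 40 and 28 for the PD tumors, and 33, 182 and 1834 in Comb, which is the order of Ccl24 within PD and Comb. Ccr8 had no count in any tumor, which allows up to 0.245 to 0.381 CPM per tumor.

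Among genes of resident macrophages, DESeq2 called 10 of 14 higher in Comb and edgeR none (12 at an unadjusted p under 0.05), and without Comb 3 DESeq2 called 2, while without Comb 1 edgeR called 11. Igf1 was 6.52 ± 1.36, Cbr2 4.02 ± 1.16 and Lyve1 1.52 ± 0.61 above Con (4.61, 2.16 and 0.92 without Comb 3), and Lyve1 did not pass in either tool. In all, the 16 lists held 181 tested genes other than the 10, of which DESeq2 called 117 higher and 1 lower in Comb against Con, beside 12.0% of all genes called higher. The lists were chosen with earlier results of these data known, so nothing is read from these counts. Without Comb 3, DESeq2 called 48 higher and 1 lower. By edgeR, 0% of all genes and none of the 181 were called (3406 of all genes and 134 of the 181 at an unadjusted p under 0.05). Without Comb 1, edgeR called 3943 of all genes, and of the 181 it called 127 higher and 6 lower.

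Other cell types moved with the members. The summed level of 10 fibroblast genes reached 2287 to 3005 CPM in the Con tumors, 1200 to 3597 CPM with SFIH alone, 4239 to 6608 CPM with PD alone and 3092, 11007 and 19479 CPM in Comb, and 9 of 10 were called higher in Comb by DESeq2 (4 without Comb 3). Among genes of mast cells, eosinophils and type 2 cytokines, 8 of 12 were called higher by DESeq2 (5 without Comb 3). The mast cell protease gene Tpsb2 had 26 to 51 counts in Con and 135, 761 and 4566 in Comb, and Cpa3 had 18 to 35 counts in Con and 77, 467 and 2709 in Comb. The 2 most abundant genes of that list did not pass in either tool. Il33, which encodes an alarmin cytokine, was at -1.54 ± 0.78 with all 3 Comb tumors below Con, and Il1rl1, its receptor, was at 0.37 ± 0.39, with its lowest level of the 12 tumors in Comb 3 (28.8 CPM). Without Comb 3 they stood at -1.31 and 0.72. All 3 PD tumors also lay below Con for Il33, at -1.67 ± 0.79, and Comb stood at 0.13 ± 0.77 against PD. Skeletal muscle genes, 11 of 12 called higher by DESeq2 (2 without Comb 3), did not follow the members in Comb 2, where 4 of the 12 had no count. Adipocyte genes summed to 143 to 293 CPM outside Comb and to 187, 675 and 2365 CPM in Comb. T cell genes summed to 22.4 to 103 CPM outside Comb and to 36.0, 113 and 260 CPM in Comb. Neutrophil genes were at 95.6, 82.7 and 39.1 CPM in Comb, within or below the 57.5 to 134 CPM of the other tumors. DESeq2 called 5 of 7 adipocyte and 5 of 8 T cell genes higher (2 and 2 without Comb 3), 5 of 7 epithelial genes (0 without Comb 3), and 1 each of 6 neutrophil, 4 platelet and 4 skin genes, while edgeR called none of any list. Without Comb 1, edgeR called 9 of 10 fibroblast, 12 of 12 skeletal muscle, 8 of 12 type 2, 5 of 7 adipocyte, 8 of 8 T cell and 5 of 7 epithelial genes higher. The part of these cell types in the levels of the 10 genes was not tested.

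**Figure D5:**
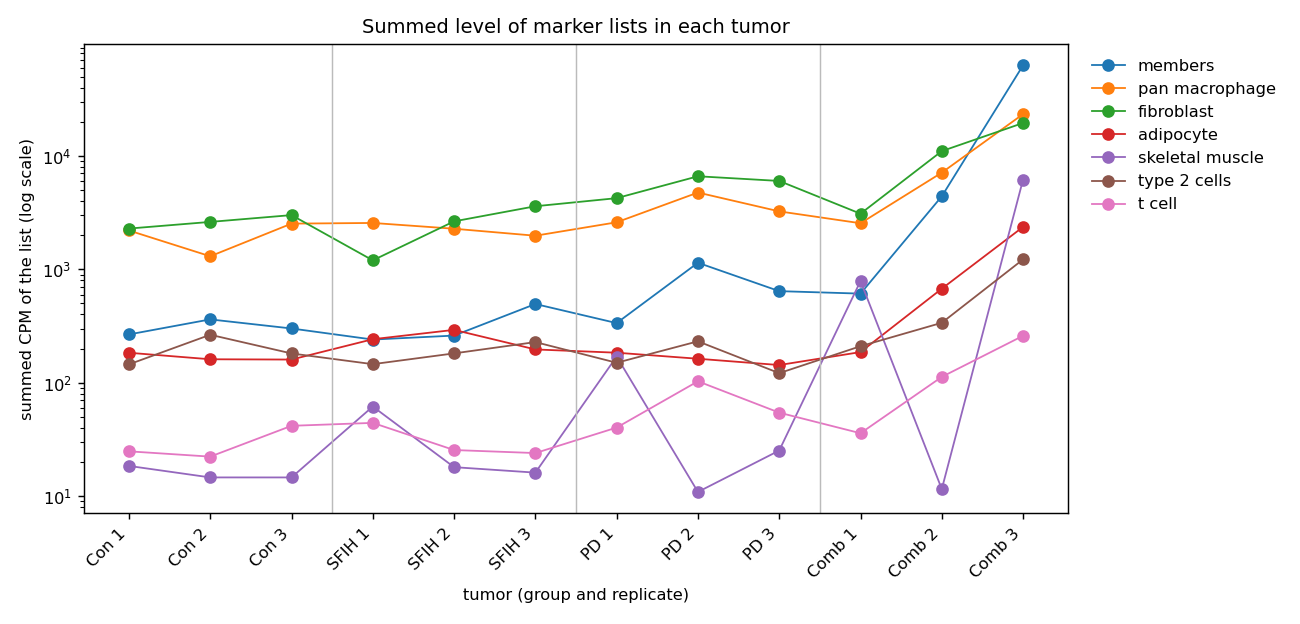
Summed CPM of the 10 genes (members) and of 6 marker lists in each tumor, on a log axis, with tumors ordered by group and replicate and lines that join the values of a list. The members reach 62776 CPM in Comb 3, where the macrophage, fibroblast, adipocyte, type 2 and T cell lists are at their highest too, and the skeletal muscle line peaks in Comb 1 and Comb 3 but not in Comb 2.

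The genes most like the 10 were found by the Spearman correlation of log2(CPM + 1) over the 12 tumors with the mean standardized level of the members, which ranks SFIH 1 lowest and Comb 3, Comb 2 and PD 2 highest. They were Atp8b1 (0.99), Col14a1 (0.97), Serping1 (0.97), Clec3b (0.97), Bgn (0.96), Adamts15 (0.96), Lum (0.95), Nid1 (0.95), Chl1 (0.95) and Srpx2 (0.95), and their Pearson correlations were 0.902 to 0.971 without Comb 3. Several encode matrix proteins, such as the collagen Col14a1 and the proteoglycans Bgn (biglycan) and Lum (lumican). Bgn was at 90.9, 114 and 110 CPM in Con, 68.0, 111 and 189 for the SFIH tumors, 132, 327 and 274 for the PD tumors, and 148, 557 and 1034 in Comb. All points share the library and the cell makeup of their tumor, so the likeness is a description over 12 tumors.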

How the data were processed

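RNA of 12 MC38 tumors was made into QuantSeq 3′ mRNA-Seq libraries and read on a NextSeq 500 instrument as single-end 75 bp reads. The authors deposited whole-number counts of reads per gene symbol, without normalization. The aligner, the genome build and the annotation are not given in the sources used here. Reads carried no molecular identifiers, so intervals and floors (3 counts) cover counting error only. Columns were matched to samples by the column name in each sample description, and samples to groups by the treatment label.

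From the counts, CPM and log2(CPM + 1) were computed per tumor from library totals. Differences came from edgeR 4.0.16 in R 4.3.3 (filterByExpr, TMM, 1 quasi-likelihood fit of all groups, two-sided) with Benjamini-Hochberg adjustment and a threshold of 0.05. DESeq2 1.42.0 was an alternative. Steps were tested on simulated data. Python 3.11.15, pandas 2.3.3 and scipy 1.17.1 made the tables.

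The members and the 16 other gene lists, written by hand from general knowledge, were chosen with earlier results of these data known. The text names all members, of each other list the 4 tested genes with the highest mean CPM plus 16 further genes listed by name, and the 10 genes most like the members. It gives values for those that bear on a result, 2 listed genes are not reported here, and Retnlb was added after its counts were seen. Of the list symbols, 3 were not found. No column was left out. Replicates differed by more than counting noise.

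The alternatives were DESeq2, no TMM, upper-quartile scaling, no filter or a mean of 50 counts, a fit of only the groups compared, a replicate block, each tumor left out in turn and, for relative levels, TMM, a pseudocount of 0.25 or Ptprc as the reference. DESeq2 without Comb 3 was added after the counts were seen.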

Additional observations from a re-analysis of the deposited data

How the results depend on the processing

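Without TMM, Cd163 was at -0.027 in SFIH against Con. Replicate numbers did not pair the tumors: deviations of same-numbered tumors correlated by -0.29 to 0.41, 6 of 18 pairs were over 0.1, and 3 of 12 tumors were closest to their own number. With a replicate block, no gene of the 10 or of the table was called, the members' median was -0.31 for SFIH, 0.90 for PD and 3.51 for Comb against Con, and Mrc1, Cd163, Folr2 and F13a1 stood at -0.085, -0.31, -0.33 and -0.45 in SFIH against Con.

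Leaving out 1 tumor at a time, the members' median was between -0.57 (without SFIH 3) and 0.30 for SFIH, between 0.60 (without PD 2) and 1.66 for PD and between 2.64 (without Comb 3) and 4.87 for Comb against Con. For SFIH it was -0.14 to 0.18 for Il4ra, -2.53 (without SFIH 3) to -0.09 (without Con 2) for Retnla, -0.37 to 0.63 for Ccl8, -1.81 to 0.90 for Ccl24, -0.56 to 0.42 for Mrc1, -0.92 to 0.45 for Cd163, -0.59 to 0.33 for Folr2 and -0.66 to 0.57 for F13a1. For PD, Stat6 ranged from -0.13 to 0.020. No setting called a member for SFIH or PD. Members other than Stat6 kept their sign in PD and Comb against Con in all settings.

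DESeq2 called 4, 6, 1998, 417 and 1157 genes (SFIH, PD and Comb against Con, then Comb against PD and SFIH), and 118, 43 and 93 of the other listed genes in the Comb comparisons. Without Comb 3 it called 740, 30 and 94 genes and 49, 1 and 19 listed genes, and the members' median was 2.67 against Con. edgeR called 0 to 3943, 0 to 2100 and 0 to 3117 genes when 1 tumor was left out, and 0 to 136, 0 to 83 and 0 to 121 listed genes. The highest counts came without Comb 1. Without Comb 3, edgeR called 5 genes against Con, 1 of them listed. With Ptprc as the reference, relative differences were 1.91 for Comb against Con and 1.71 against PD. The relative difference of PD against Con ran from -0.15 to 0.50 over its settings. The causes were not tested.

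The 3 tumors per group, and 1 count of Ccl24 in 4 tumors, limit the precision.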
